A study of Homo sapiens with 2 samples.

Results

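The small proline-rich (SPRR) family was examined in Ca9-22, a cell line from oral squamous cell carcinoma (OSCC). Its members were taken as the non-control probes whose gene name in the array files was SPRR1A, SPRR1B, SPRR2A, SPRR2B, SPRR2D, SPRR2E, SPRR2F, SPRR2G, SPRR3 or SPRR4. This gave 13 probes for 10 genes, of 58201 probes with 43317 gene names on the array. The arrays addressed which transcripts differ when DLEU1 is expressed ectopically in these cells. There were 2 groups with 1 array each. The DLEU1 vector group was Ca9-22 infected with the lentiviral vector pLenti6/V5-DEST carrying full-length cDNA of the long noncoding RNA DLEU1, copied from KON, another OSCC line. The control vector group was Ca9-22 infected with the empty vector. Both groups therefore carried lentiviral vector sequence and both had 2 weeks of blasticidin, labelled 6 mg/ml. From each, 100 ng of total RNA was labelled with the dye Cy3 and hybridised to a one-colour expression array. Each vector was read on a single array. The differences therefore carry neither a test nor a replicate SD, and having so few arrays limits how precise any of them can be. No sources used here say how many cultures stand behind an array.

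SPRR proteins are precursors of the cornified envelope, the insoluble protein shell that replaces the plasma membrane of squamous cells as they mature. Transglutaminases join their glutamine and lysine residues into crosslinks, tying them to loricrin and involucrin. The genes lie together in the epidermal differentiation complex of chromosome 1, beside those for involucrin, loricrin, filaggrin and the late cornified envelope (LCE) proteins. In oral mucosa, members of the family are made above the basal layer, and they also respond to stress and injury in other epithelia.

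Levels below are the log2 of the scanner signal after subtraction of the 75th percentile of the array, so that 0 is the 75th percentile. A probe was detected where the software marked it well above background. Differences are the level with the DLEU1 vector minus that with the control vector, and a difference was called at 2-fold or more. Detected probes made up 47.65% (control vector) and 48.06% (DLEU1 vector) of each array. A DLEU1 probe, A_23_P151337, had a level of 3.17 (control vector) and 5.91 (DLEU1 vector), 2.74 higher (6.67-fold), and the other DLEU1 probes differed by 0.85 and 0.54. All 10 epithelial markers examined, among them KRT5, KRT14, TP63 and DSG3, were detected on both arrays. The list also held KRT8 and KRT18, keratins of simple epithelium. The label of a squamous line was met by detection of KRT5, KRT14, TP63 and DSG3. Since all 10 were detected, detection did not set these apart from the rest of the list.

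Of the 13 SPRR probes, 10 probes of 7 genes were detected on both arrays, and all 10 were at least 2-fold higher with the DLEU1 vector. None (0) was lower. Among all 26279 probes detected on both arrays, 8.98% were at least 2-fold higher. The median difference of the 10 SPRR probes was 5.84, beside a median of -0.07 and an SD over probes of 0.88 for all probes detected on both arrays. Their differences ran from 2.22 to 9.88. SPRR probes made up 4 of the 10 largest differences among these probes and 9 of the 50 largest, and the lowest SPRR probe had rank 385. SPRR2B and SPRR2G passed detection only on the DLEU1 vector array, and SPRR4 on neither. In bulk RNA, a larger share of cells making SPRR transcripts and more transcript in each cell cannot be told apart.

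**Figure D1:**
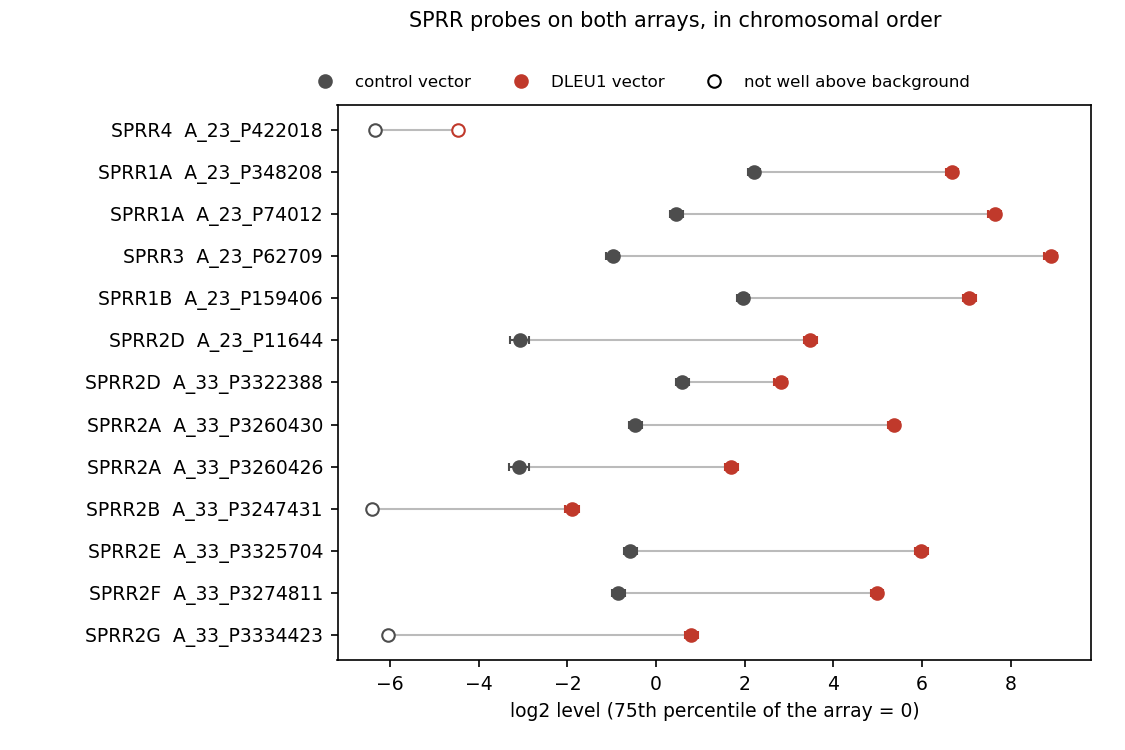
Log2 level (horizontal axis, 75th percentile of each array at 0) of the 13 SPRR probes in chromosomal order on the control vector array (grey) and the DLEU1 vector array (red), with bars for the signal error that the scanner software gave. The 10 probes detected on both arrays differ by 2.22 to 9.88, and open circles mark values not well above background.

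SPRR3, the member best known from the lining of the mouth and oesophagus, showed the largest difference among probes detected on both arrays. Its probe A_23_P62709 lies at chr1:152976230-152976289 (hg19, plus strand). The scanner signal went from 123 (control vector) to 112723 (DLEU1 vector). The log2 levels were -0.98 and 8.90, a difference of 9.88 or 939-fold. The error of that difference, propagated from the signal errors of the scanner software, was 0.21, and these errors are technical only. Over the 10 probes this error ran from 0.20 to 0.27. SPRR3 was detected on both arrays and saturated on neither.

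SPRR1A and SPRR1B encode closely related envelope precursors, also called cornifins, that are induced in stratified epithelia. SPRR1A had 2 probes on the plus strand, and here and below the control vector value is given first. A_23_P74012 (chr1:152958192-152958251) gave signals of 333 and 47153, with levels of 0.46 and 7.64, a difference of 7.18 or 145-fold. A_23_P348208 (chr1:152957897-152957956) gave signals of 1122 and 24161, with levels of 2.21 and 6.68, a difference of 4.47 or 22.1-fold. The differences of these probes of the same gene were 2.72 apart on the log2 scale. The former lies at position 542 of its transcript and the latter at position 247, and 68.33% of the bases of the latter were G or C, the highest share among the SPRR probes. SPRR1B (A_23_P159406, chr1:153005304-153005363) gave signals of 944 and 31575, with levels of 1.96 and 7.06, a difference of 5.10 or 34.3-fold. SPRR1A and SPRR1B were both detected with the control vector.

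The SPRR2 genes, which form a run of near-identical copies on the minus strand, had 8 of the 13 probes. SPRR2E (A_33_P3325704, chr1:153065672-153065731) gave signals of 162 and 14955, with levels of -0.58 and 5.99, a difference of 6.56 or 94.5-fold. SPRR2F (A_33_P3274811, chr1:153084656-153084715) gave signals of 134 and 7471, with levels of -0.85 and 4.98, a difference of 5.84 or 57.2-fold. Both genes were higher with the DLEU1 vector, but their probes share most of their sequence and may read each other's transcript. They matched at 54 of 60 bases, with a shared run of 28 bases, whereas the longest run shared by any other pair of the 13 probes was 15 bases. The first 30 bases of each, with the bases that differ in capitals, show how little separates these copies.
SPRR2E: aaccatCaAaAaatGctgttgatgttttct
SPRR2F: aaccatTaGaGaatTctgttgatgttttct

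SPRR2A is the most studied copy of the group. A_33_P3260430 (chr1:153028599-153028658) gave signals of 174 and 9744, with levels of -0.47 and 5.37, a difference of 5.84 or 57.3-fold, and the array design also lists this probe for SPRR2D. A_33_P3260426 (chr1:153028926-153028985) gave signals of 28.5 and 764, with levels of -3.09 and 1.69, a difference of 4.78 or 27.5-fold. The probes of SPRR2A thus gave differences 1.06 apart, and both were far above 2-fold.

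SPRR2D showed the widest disagreement between probes of a gene. A_23_P11644 (chr1:153012353-153012412) gave signals of 28.7 and 2632, with levels of -3.08 and 3.48, a difference of 6.56 or 94.3-fold. A_33_P3322388 (chr1:153012604-153012663) gave signals of 366 and 1658, with levels of 0.60 and 2.81, a difference of 2.22 or 4.65-fold. The latter is also listed for SPRR2C, a pseudogene of the same cluster that is not a member here. The separate SPRR2C probe A_23_P126089, examined after the SPRR2D values were seen, gave signals of 371 and 3942, a difference of 3.45 or 10.9-fold. The SPRR2D differences were 4.34 apart. The SD of single probes about the mean of their gene was 0.47 over 4674 genes, and a gap between probes spreads more widely than that.

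SPRR2B and SPRR2G were not well above background with the control vector, where the software gave their spots surrogate values. SPRR2G (A_33_P3334423, chr1:153122296-153122355) gave signals of 3.64 and 408, and was at least 29.5-fold higher. SPRR2B (A_33_P3247431, chr1:153042837-153042896) gave signals of 2.84 and 63.1, and was at least 4.56-fold higher. These bounds set the DLEU1 vector level against the lowest level of a detected probe on the control vector array, -4.09. Among all 1690 probes detected with the DLEU1 vector only, 35.7% had a bound of 2-fold or more. When the background was corrected by normexp, a model of signal plus noise, the log2 bound of SPRR2G went from 4.88 to 2.54 and that of SPRR2B from 2.19 to 0.92, below 2-fold.

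SPRR4 lies nearest to involucrin among the members and has been linked to the skin's response to ultraviolet light. Its probe A_23_P422018 (chr1:152944580-152944639) gave a signal of 2.99, a surrogate value, with the control vector, and 10.8 on the other array. Neither value was well above background, so no fold was taken. SPRR4 was the only member of the family undetected on both arrays.

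**Figure D2:**
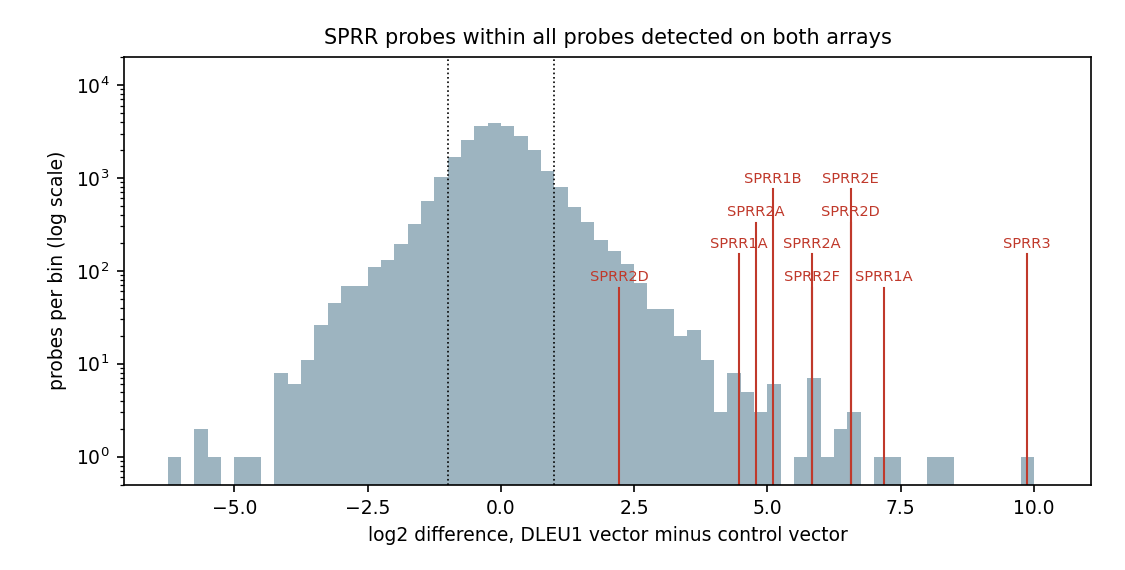
Number of probes (vertical axis, log scale) by log2 difference in bins of equal width for all 26279 probes detected on both arrays, with red lines at the 10 SPRR probes and dotted lines at 2-fold each way. The SPRR lines lie to the right of the higher 2-fold line, from 2.22 (SPRR2D) to 9.88 (SPRR3).

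The SPRR probes were then ordered by the size of their difference. Of the 9 gaps between neighbours in this order, 5 were above the SD of 0.47 between probes of a gene over the whole array. That SD is of single probes about the mean of their gene, and a gap between 2 probes spreads more widely than that. The SPRR genes with 2 probes gave differences 1.06 to 4.34 apart, wider than most of these gaps, so the order is one of probes and does not rank the genes. SPRR3 stood 2.69 above the SPRR1A probe A_23_P74012, and the SPRR2D probe A_33_P3322388 stood 2.25 below the SPRR1A probe A_23_P348208. Between these ends, SPRR2E and the SPRR2D probe A_23_P11644 were 0.0042 apart, and the SPRR2A probe A_33_P3260430 and SPRR2F 0.0026 apart. SPRR1B, the SPRR2A probe A_33_P3260426 and the SPRR1A probe A_23_P348208 followed each other in steps of 0.32, so these neighbours could not be ordered. The SD of the log2 difference between replicated spots, from 282 other probes, was 0.08, and holds no variation between cultures.

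None (0) of the SPRR probes was saturated or marked as an outlier on either array. The DLEU1 vector array had a strip of 5 tiles with many dim spots, and 0 of its 593 probes were SPRR probes. On the control vector array 3 SPRR probes had a surrogate value, those of SPRR2B, SPRR2G and SPRR4.

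The 10 genes span 177.8 kb of chromosome 1, with 4 genes on the plus strand (SPRR1A, SPRR1B, SPRR3 and SPRR4) and 6 on the minus strand (the SPRR2 genes). To set the family beside its neighbours, 36 other genes of the epidermal differentiation complex were listed, without the S100 genes. Of the 35 with a probe, 12 were detected on both arrays, 18 with the DLEU1 vector only, 1 with the control vector only and 4 on neither. Of the 12, 8 were at least 2-fold higher and 0 were 2-fold lower, with a median difference of 2.87. That median was 0.80 where a signal of 100 was required on both arrays and 4.45 where detection on 1 array sufficed. The latter setting adds the genes detected on 1 array only, most of them with the DLEU1 vector. Among all 20246 gene names detected on both arrays, 9.18% were at least 2-fold higher, and 9.78% were lower by as much. All 7 SPRR genes detected on both arrays were at least 2-fold higher. With that required signal, 2 of 5 neighbours and all 7 of 7 SPRR genes were at least 2-fold higher, beside 7.27% of all gene names. At that setting SPRR2A rested only on A_33_P3260430, also listed for SPRR2D, and SPRR2D only on A_33_P3322388, also listed for SPRR2C.

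Among the 12 neighbours detected on both arrays, the highest were LCE3D (8.07), LCE3E (6.18) and involucrin (IVL, 5.84). Involucrin is an early scaffold protein of the envelope to which SPRR proteins are joined. The lowest of the 12 were LCE1D (0.28), LCE1C (0.70) and LCE3A (0.78). LCE1C is given at its brighter probe, and its other probe differed by 1.98. Of the 18 detected with the DLEU1 vector only, 14 had a bound of 2-fold or more, beside the 35.7% of all such probes given above. Cysteine-rich C-terminal 1 (CRCT1) was at least 361-fold higher, cornulin (CRNN), a protein of upper squamous layers, at least 283-fold, and LCE2C at least 45.4-fold. Loricrin (LOR), the main protein of the epidermal envelope and a crosslinking partner of the SPRR proteins, was at least 45.2-fold higher. These bounds are set against the lowest detected level with the control vector, -4.09. They are not given under normexp, which lowered the bounds of SPRR2B and SPRR2G. C1orf68 was detected with the control vector only, and was at least 4.36-fold lower with the DLEU1 vector. The SPRR genes lay between IVL and LOR, and none of the 7 detected on both arrays was lower. SPRR2B, SPRR2G and LOR passed detection only on the DLEU1 vector array, so they could not have come out lower. SPRR4 has no direction.

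**Figure D3:**
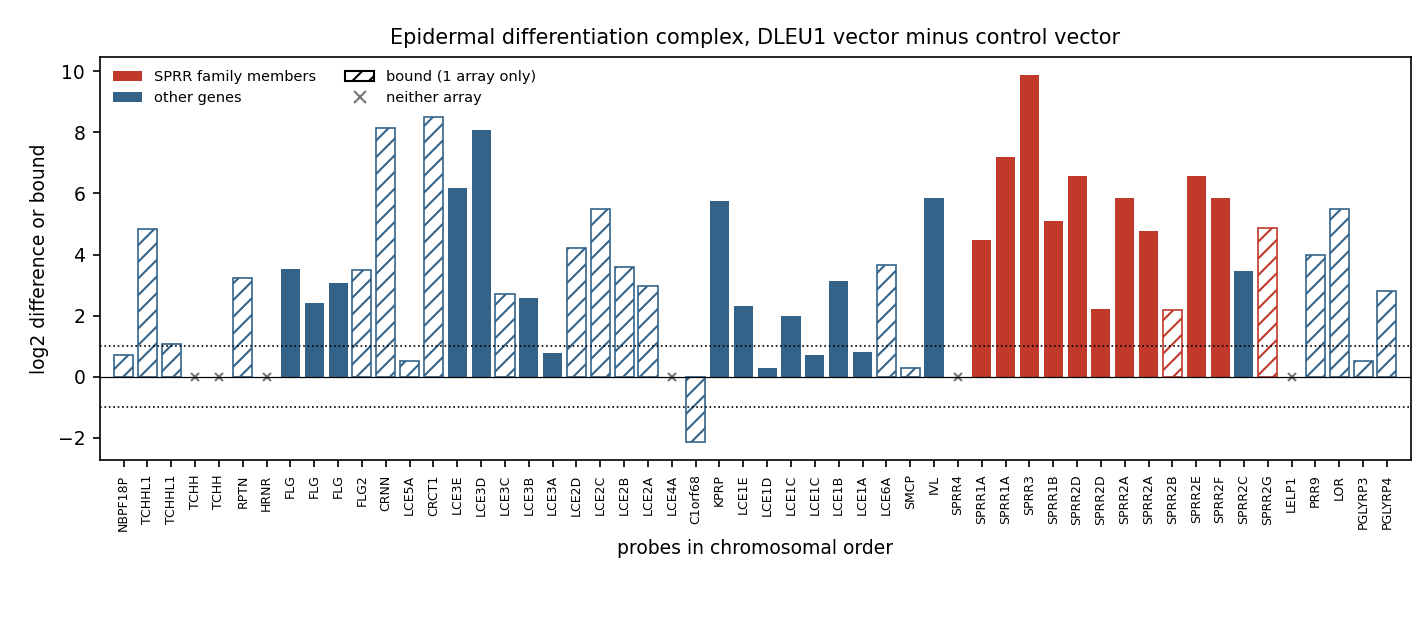
Log2 difference (filled bars) or bound (hatched bars, probes detected on 1 array) for probes of the epidermal differentiation complex in chromosomal order, with SPRR members in red, other genes in blue (the pseudogene SPRR2C among them), and crosses for probes detected on neither array. SPRR3 has the tallest bar (9.88), and C1orf68 is the only bar below 0.

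The enzymes that crosslink SPRR proteins and the scaffold around them made a list of 15 genes. Of these, 11 were detected on both arrays, of which 9 were at least 2-fold higher (9.18% over all gene names) and 0 were 2-fold lower (9.78%), with a median difference of 1.70. Transglutaminase 1 (TGM1), the membrane-bound enzyme of envelope assembly, was 2.49 higher. TGM3, which crosslinks SPRR proteins in the cytosol, was detected on neither array, as was TGM7. TGM5 was detected with the DLEU1 vector only, at least 2.21-fold higher, and TGM2 with the control vector only, with a bound of 1.58-fold lower. Among the genes detected on both arrays, the highest differences were those of sciellin (SCEL, 5.07), elafin (PI3, 5.02) and suprabasin (SBSN, 4.65). Elafin is a protease inhibitor that is itself crosslinked. The lowest differences among the genes detected on both arrays were those of envoplakin (EVPL, 0.45), cystatin A (CSTA, 0.99) and desmoplakin (DSP, 1.37). Each SPRR probe detected on both arrays except the SPRR2D probe A_33_P3322388 differed by more than TGM1.

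Transcription factors and regulators described at SPRR promoters or in upper squamous layers made a list of 33 genes. Of these, 30 were detected on both arrays, of which 13 were at least 2-fold higher (9.18% over all gene names) and 2 were lower by as much (9.78%), and the median difference was 0.84. When the arrays were scaled by their spike-in probes, 8 were at least 2-fold higher, beside 4.56% of all gene names. Of those detected on both arrays, the highest were ZNF750 (4.22), GRHL3 (3.66) and the AP-1 subunit JUNB (2.21). ZNF750 and GRHL3 are both regulators of late epidermal differentiation. The AP-1 subunit JUN differed by 0.53. FOSL1, a further AP-1 subunit, was lowest at -4.05, followed by ETS1 (-1.12). ELF3, an epithelial ETS factor, differed by 1.09. KLF4, a factor of the granular layer, differed by -0.19. The octamer-binding factor POU2F3 was detected with the DLEU1 vector only, and was at least 3.77-fold higher. ELF5 and NFE2L2 were detected on neither array. The median of the SPRR probes (5.84) was above the median of each of these 3 lists, with no test of the difference.

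**Figure D4:**
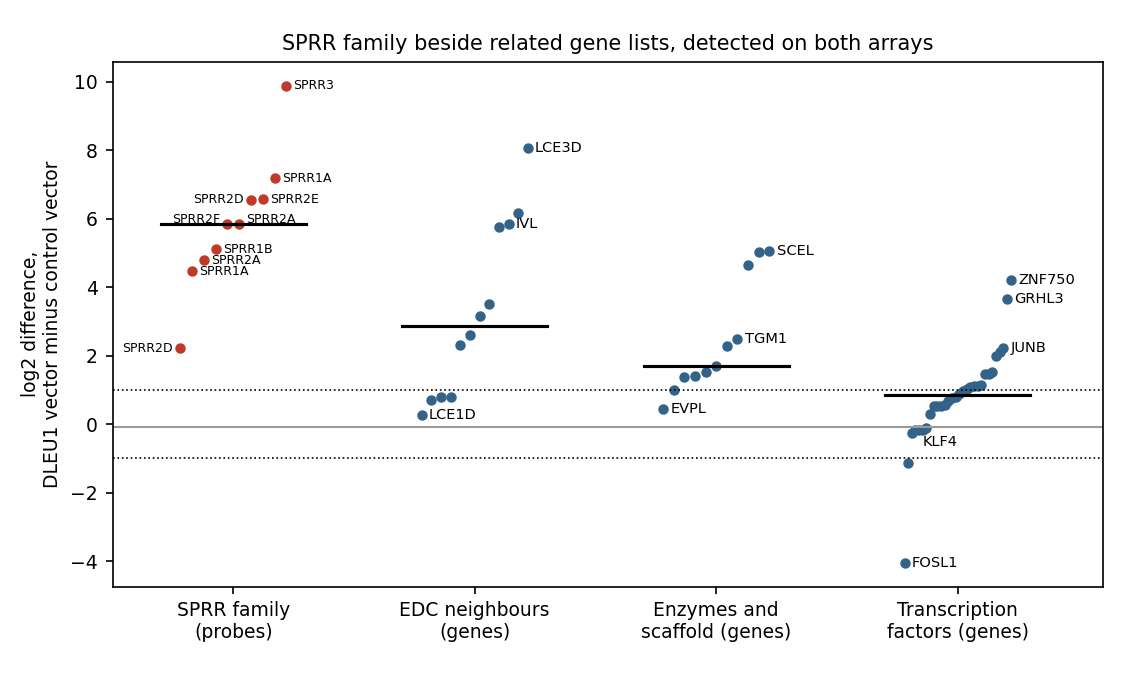
Log2 difference of the 10 SPRR probes and of the genes of 3 related lists detected on both arrays, with a black line at each median (5.84, 2.87, 1.70 and 0.84), a grey line at the median of all probes and dotted lines at 2-fold each way. Points are sorted within a column, and JUNB and FOSL1, both AP-1 subunits, lie on opposite sides of 0.

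Promoters were read from RefSeq (GRCh38.p14), which held 8 of the 10 members, each as 250 bases before the start of the gene and 50 after it. SPRR2D and SPRR2E had no entry in the table. Motifs were searched by their letters on both strands, and a match describes the sequence only. The AP-1 letters TGANTCA were found in 6 of the 8 promoters (SPRR1A, SPRR1B, SPRR2A, SPRR2F, SPRR2G and SPRR3) and in 7.71% of all 35116 promoters. The octamer ATGCAAAT, or ATTTGCAT on the other strand, was found in 3 of the 8 (SPRR2A, SPRR2B and SPRR2F) and in 1.77% of all. TATAAA was found in 7 of the 8, all except SPRR1B, at -29 or -30 from the start, and in 11.5% of all. The ETS letters CAGGAA were found in 3 of the 8 (SPRR1B, SPRR2A and SPRR2B) and in 28.4% of all, and CCGGAA in 0 of the 8 and 17.2% of all. The KLF letters CACCC were found in 6 of the 8 and in 59.9% of all. The interferon response motif was searched in a fixed form only, which was found in 0 of the 8 and 3.57% of all. Forms with other letters were not searched, so this count cannot tell whether the SPRR promoters lack an interferon response motif.

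The 200 bases before the start are shown for 5 members that differ in these letters and in their values, with AP-1 and octamer matches in capitals. SPRR3 (chr1:153001549-153001748, plus strand), with the largest difference, had an AP-1 match at -170. SPRR1B (chr1:153031003-153031202, plus strand) had AP-1 matches at -141 and -111, of which the latter overlaps a KLF match. SPRR2A (chr1:153057513-153057712, minus strand) had an AP-1 match at -197 and the octamer at -110. SPRR2B (chr1:153071612-153071811, minus strand), detected with the DLEU1 vector only, had the octamer at -108 and no AP-1 match in the window. SPRR4 (chr1:152970448-152970647, plus strand), detected on neither array, had neither of the motifs in the window. All coordinates are of GRCh38.p14.
SPRR3: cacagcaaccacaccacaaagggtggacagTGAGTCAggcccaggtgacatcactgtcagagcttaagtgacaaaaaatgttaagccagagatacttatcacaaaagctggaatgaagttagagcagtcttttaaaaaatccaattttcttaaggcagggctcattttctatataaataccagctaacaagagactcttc
SPRR1B: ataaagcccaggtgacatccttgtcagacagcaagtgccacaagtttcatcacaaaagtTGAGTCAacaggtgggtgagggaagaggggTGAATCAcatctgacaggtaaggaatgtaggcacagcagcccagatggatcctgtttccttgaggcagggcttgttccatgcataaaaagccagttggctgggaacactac
SPRR2A: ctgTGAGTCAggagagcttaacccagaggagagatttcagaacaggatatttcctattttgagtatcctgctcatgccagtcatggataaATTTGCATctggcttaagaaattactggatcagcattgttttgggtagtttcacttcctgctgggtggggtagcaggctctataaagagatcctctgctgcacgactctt
SPRR2B: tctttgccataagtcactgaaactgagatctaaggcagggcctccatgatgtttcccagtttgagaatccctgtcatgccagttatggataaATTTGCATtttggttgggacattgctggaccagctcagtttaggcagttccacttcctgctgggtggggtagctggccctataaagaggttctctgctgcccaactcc
SPRR4: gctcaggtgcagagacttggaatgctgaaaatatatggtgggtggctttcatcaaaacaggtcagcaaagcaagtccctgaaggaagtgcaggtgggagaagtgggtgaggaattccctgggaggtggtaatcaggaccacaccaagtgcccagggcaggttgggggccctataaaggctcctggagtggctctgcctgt
The AP-1 match of SPRR1A lies at -108, that of SPRR2F at -196 and that of SPRR2G at -180. Of the members with an AP-1 match, SPRR1A, SPRR1B, SPRR2A, SPRR2F and SPRR3 were detected on both arrays and higher with the DLEU1 vector. SPRR2G, which also has a match, was detected with the DLEU1 vector only. SPRR2D and SPRR2E, whose promoters were not read, were detected on both arrays and higher with the DLEU1 vector. A link between the motifs and the values was not tested.

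Markers of other cell types were read beside the SPRR values. Summed on the linear scale, with the 75th percentile of an array as 1, the 10 epithelial markers reached 429 (control vector) and 1495 (DLEU1 vector). Of the 10, 6 were at least 2-fold higher, beside 9.18% of all gene names. The others were TP63 (0.96), KRT8 (0.18), EPCAM (-0.78) and KRT18 (-0.93), of which KRT8 and KRT18 are keratins of simple epithelium. Of 6 fibroblast markers, 2 were detected on both arrays, 1 (LUM) with the DLEU1 vector only and 3 (COL1A2, COL3A1 and DCN) on neither. Their sum was 1.496 and 22.3, carried by COL1A1 (3.99 higher). Of 4 leukocyte markers with a probe, 3 were detected on both arrays, CD3E on neither, and the sum was 1.20 and 1.02. Of 3 endothelial markers, 2 were detected on both arrays, PECAM1 on neither, and the sum was 0.43 and 2.73, with the brighter VWF probe differing by 3.70 and the other by -0.07. Of 3 melanocyte markers, 2 were detected on both arrays, MLANA on neither, and the sum was 1.78 and 1.72. The part of these markers in the SPRR differences was not tested.

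The SPRR differences were computed again under other scalings, background corrections, filters and thresholds. The count of SPRR probes at least 2-fold higher ran from 8 to 13, and the median difference from 5.17 to 6.20. The upper end of the count includes probes not well above background with the control vector. All 128 values of single SPRR probes detected on both arrays stayed at least 2-fold higher.

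**Figure D5:**
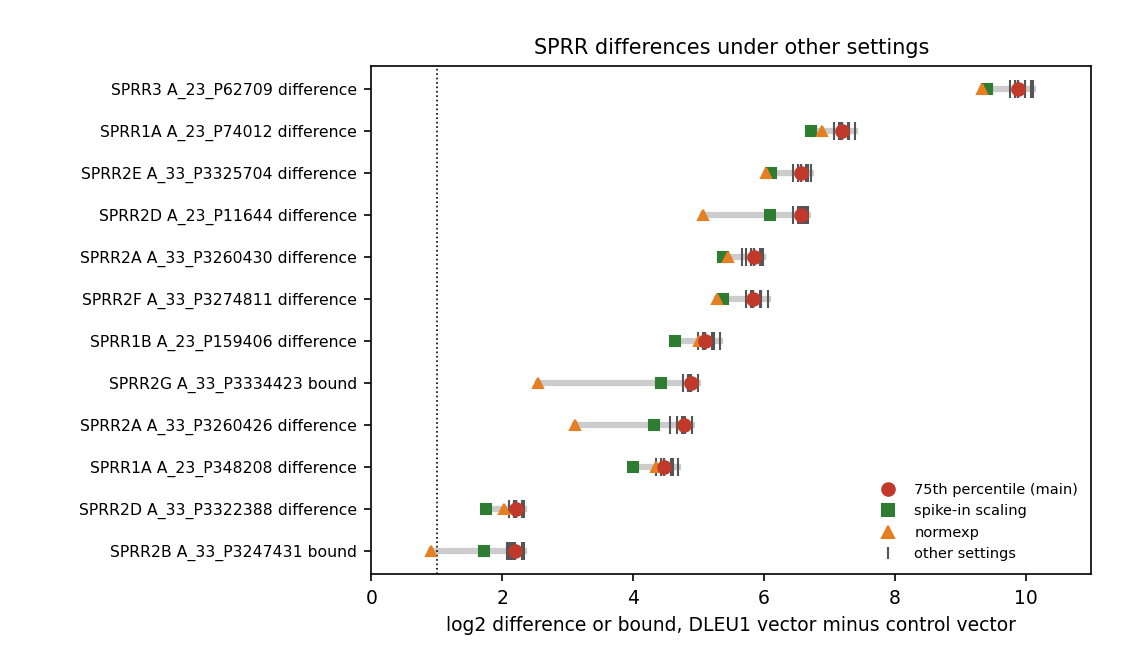
Log2 difference or bound (horizontal axis) of each SPRR probe with scaling to the 75th percentile (red circles), with spike-in scaling (green squares), with normexp background correction (orange triangles) and under the other settings (ticks), with a dotted line at 2-fold. The single value below the line is the SPRR2B bound with normexp (0.92).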

How the data were processed

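The spots were read by the authors with Agilent Feature Extraction 10.7.3.1 (10.7 per the submitters' processing notes). Per the file headers, the deposited intensity is the spot signal less its local background, after spatial detrending, and surrogate values stand in where a spot was dim. GeneSpring was then used in the study. The authors' series values held the same intensity, deviating by at most 0.497%, and neither kind of file was normalized between arrays. Probe positions are those of the array files (hg19). Exon and UTR annotation of the probes was not used here.

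Control spots and spots marked as outliers (84 with the control vector, 103 with the DLEU1 vector) were left out, spots of a probe were averaged on the log2 scale, and the 75th percentile of the non-control probes (7.92 and 7.88) was subtracted. A probe detected on 1 array was given a bound against the higher of the lowest detected level and its own level on the dim array. Where a gene had several probes detected on both arrays, the brightest stood for it. Members and lists were chosen with earlier results of these data known. The genes named were all SPRR genes, DLEU1, the 3 highest and 3 lowest of each list, the 3 largest bounds, and IVL, LOR, TGM1, TGM3, KLF4, ELF3, JUN, JUNB, FOSL1, POU2F3 and GRHL3; others were chosen after their values were seen. A gene that this rule takes from the list of transcription factors is not reported here. Python 3.11.15 and limma 3.58.1 in R 4.3.3 were used, and the calls were tested on simulated data.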

Additional observations from a re-analysis of the deposited data

How the results depend on the processing

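No paired analysis was possible because each group had 1 array, and for the same reason no replicate could be left out. The count of SPRR probes at least 2-fold higher was 10 under most settings and 8 where signals of 100 or more were required. It was 12 where 1 array sufficed for detection and 13 with no filter, and no share over all probes was computed at these settings. They add SPRR2B and SPRR2G, and with no filter SPRR4, which were not well above background with the control vector. The median difference of the SPRR probes (5.84) moved by more than the spot SD to 5.73 with median scaling, 5.95 when the 75th percentile was taken over detected probes, 5.94 after quantile normalization, 5.97 with loess, 5.38 with spike-in scaling and 5.17 with normexp. It was 5.47 with SPRR2B and SPRR2G at their bounds and 6.20 without the probes listed for more than 1 SPRR transcript. The median of all probes moved by -0.11, 0.11 and -0.46 with median scaling, the detected 75th percentile and spike-in scaling. With normexp the dim SPRR probes differed by less, A_33_P3260426 of SPRR2A by 3.11, A_23_P11644 of SPRR2D by 5.07, and the bound of SPRR2G was 2.54. None (0) of 128 single-probe values reversed. Among the lists, the count of neighbours at least 2-fold higher (8) was 26 with no filter or where 1 array sufficed. These settings add the 18 neighbours detected with the DLEU1 vector only, which pass through the array where they are higher. The share over all gene names was not computed at these settings, so the 26 is not read as a result about the neighbours. At the same settings 1 neighbour and 1 gene of the enzyme list were at least 2-fold lower, in place of 0. Where signals of 100 or more were required, the count of neighbours at least 2-fold higher was 2. The count of transcription factors (13) was 8 with spike-in scaling, beside 4.56% of all gene names, and 5 at 3-fold. The count that was lower was 1 in place of 2 at 3-fold, with normexp and with the requirement on the signal. No share over all gene names was computed at 3-fold, or for lower genes at these settings, so these counts are not read as a result about the factors. Dim probes limit SPRR2B, SPRR2G and SPRR4, whose control vector values are surrogates.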
